A study of Mus musculus with 7 samples.

Results

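The transcripts named 7SK and Y_RNA are copies of small non-coding RNA genes that are scattered over the mouse genome. Members were all transcripts whose symbol in the deposited tables of reverse transcription (RT) stops is exactly 7SK, Rn7sk, Y_RNA, Rny1 or Rny3. This gave 113 of 26827 transcripts, of which 98 are named 7SK and 15 are named Y_RNA. The symbols Rn7sk, Rny1 and Rny3 are on 0 transcripts of the tables. GENCODE vM1 annotates 331 transcripts named 7SK and 24 named Y_RNA, so that the tables list part of each set. The study used CIRS-seq to map RNA structure in E14 mESC, a mouse embryonic stem cell (ESC) line of the 129/Ola strain. Cells were lysed, the lysate was treated with proteinase K, and the deproteinized RNA was left untreated (NT) or treated with dimethyl sulfate (DMS, pooled from 50 to 200 mM) or with the carbodiimide CMCT (pooled from 10 to 50 mM), with 2 replicates each. The NT library pools untreated lysate from the DMS buffer and from the CMCT buffer. The ribosomal RNA was depleted, and 1 RNA-seq library was made from the same cell line without treatment.

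7SK is an RNA polymerase III transcript that holds the kinase P-TEFb (CDK9 with cyclin T1 or T2) in an inactive complex with HEXIM1, LARP7 and MEPCE. Its 5′ hairpin carries repeats of the letters GAUC, which HEXIM1 binds. Y RNAs are also made by RNA polymerase III, are bound by the Ro60 protein (Trove2) and at their 3′ end by La (Ssb), and fold into a stem with an internal loop. Both RNA families have left many retrocopies in mammalian genomes, most of which are thought not to be transcribed. DMS methylates unpaired A and C on the base-pairing face, and CMCT modifies unpaired U and G. Reverse transcriptase stops beside a modified base, so the count of stops, set against NT, reads the modification. Stops were taken at the position the tables give, and whether that is already the modified base is not given in the sources used here. On 7SK, the excess of DMS stops at A and C was 1.45 on the log2 scale at that position, and -0.18 and -0.16 when stops were counted 1 base upstream or downstream.

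The sequences of the 3 leading RNAs are shown because all position results refer to them. They were read from mm9 on the strand of the transcript, and capitals mark bases with a reactivity above 0.7, the class called highly reactive. Reactivity is the log2 ratio of treated over NT stops, with each set scaled to the mean of the RNA, set to 0 where negative or where the treated libraries had 0 stops, capped at its 90th percentile and divided by it, and the larger value of the DMS and CMCT reactivities was taken. The last 25 bases of an RNA have no measurement and stay in lower case.
7SK, chr9:78023141-78023440, minus strand, bases 1 to 300 of 331: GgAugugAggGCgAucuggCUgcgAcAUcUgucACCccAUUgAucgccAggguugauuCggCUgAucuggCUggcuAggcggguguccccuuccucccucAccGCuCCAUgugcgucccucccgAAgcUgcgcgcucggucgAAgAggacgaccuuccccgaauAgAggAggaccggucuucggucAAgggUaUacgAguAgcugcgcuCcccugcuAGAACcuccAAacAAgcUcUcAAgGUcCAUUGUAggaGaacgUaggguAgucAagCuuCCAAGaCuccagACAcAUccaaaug
Y RNA of 102 bases, chr6:47731623-47731724, plus strand: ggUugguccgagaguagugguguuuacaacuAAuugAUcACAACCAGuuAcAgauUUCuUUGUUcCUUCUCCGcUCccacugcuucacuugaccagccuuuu
Y RNA of 112 bases, chr6:47738068-47738179, minus strand: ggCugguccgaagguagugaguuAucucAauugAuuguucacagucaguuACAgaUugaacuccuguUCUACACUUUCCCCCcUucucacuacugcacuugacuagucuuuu

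The 7SK copy of chromosome 9 (ENSMUST00000083103, gene ENSMUSG00000065037, 331 bases) lies outside protein-coding genes between Ick and Gsta4, the place at which RefSeq (GRCm38) has Rn7sk. The Y RNA copies of 102 bases (ENSMUST00000083011) and 112 bases (ENSMUST00000083767) lie between Ezh2 and Pdia4 on chromosome 6, and RefSeq has Rny3 (101 bases) and Rny1 (111 bases) directly before Pdia4. Since the tables give these copies only the family symbols, they are called by chromosome and length here. All 113 members are annotated as single-exon genes, and 36 of 98 copies of 7SK and 3 of 15 Y RNA copies lie within a protein-coding gene.

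The 6 libraries held 140186204 to 247369982 RT stops when a genomic position shared by isoforms was counted once. The paper reports fewer reads for a whole treatment than any of these totals. Stops are therefore not counts of distinct reads, and the reason was not tested. The members took 0.648% to 1.15% of a library. Of the stem cell markers, all 9 were detected by RNA-seq with 728 to 8164 alignments each, against 3 to 150 alignments for the 5 fibroblast genes and 0 to 310 for the 4 endoderm genes, with Afp at 0. RT stops differed from this for Col1a1, one of the fibroblast genes, which had 35208 and 35121 stops in NT with 9 RNA-seq alignments, against 1016 to 15591 stops in NT for the stem cell markers. The part of other cells in any result was not tested.

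RT stops were spread very unevenly over the copies. Summed over all 6 libraries, a 7SK copy held between 276 and 1750458 stops with a median of 3520, and 28 copies were under 1000 while 11 were over 100000. The chromosome 9 copy alone held 22.6% of all 7SK stops, the leading 3 copies held 54.3% and the leading 8 held 79.2%. At positions whose following 25 bases occur once in the genome, it held 204589 stops, against 206538 on ENSMUST00000122587 of chromosome 4. Among Y RNA copies the concentration was higher, with 63.7% of all stops on the copy of 102 bases and 97.7% on the leading 3. The other 12 Y RNA copies ranged from 179 to 6479 stops. Per base of transcript, the sum was 5288 stops on 7SK of chromosome 9 and 5617 on the Y RNA of 102 bases. NT replicate 1 gave 273373 of the 572942 stops of the latter and 326442 of the 1750458 of the former, so the order of these sums rests on that library.

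**Figure D1:**
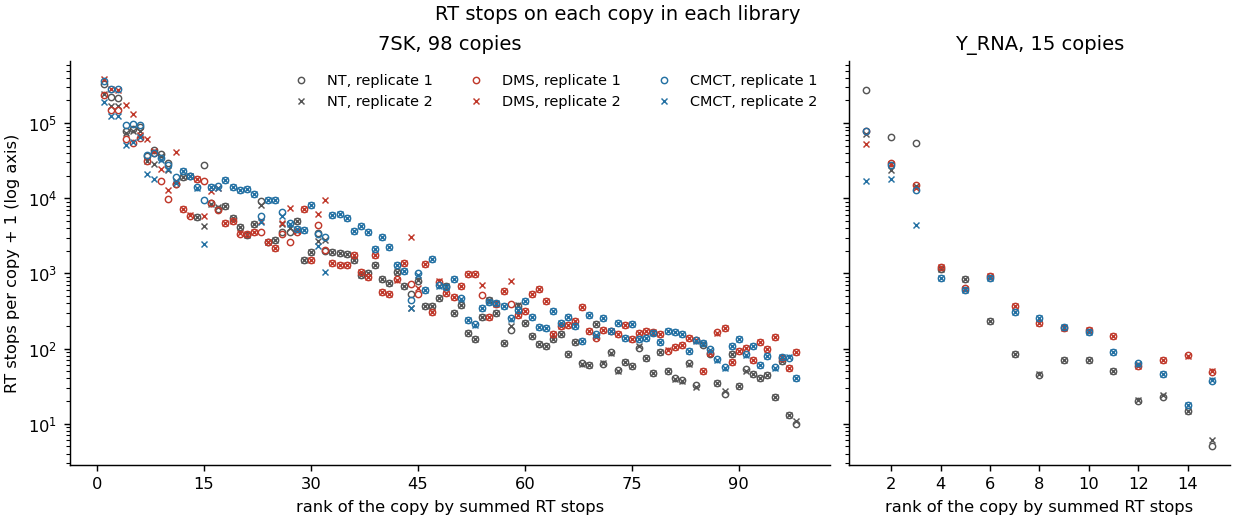
RT stops on each of the 98 copies of 7SK (left) and 15 copies of Y_RNA (right) in each of the 6 libraries, on a log axis with 1 added, with the copies ranked by their summed stops on the x axis. Circles are replicate 1 and crosses replicate 2, and for most low copies the 2 marks of a treatment coincide.

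The chromosome 9 copy of 7SK had 326442 and 246998 stops in the NT replicates, 240188 and 381157 in DMS, and 363667 and 192006 in CMCT. The values of the 3 treatments overlapped, and DMS replicate 2 was the highest library. The next copies were ENSMUST00000083890 on chromosome 2 with 222358 and 168150 stops in NT, and ENSMUST00000083977 on chromosome 15 with 218424 and 166868. These are 88.1% and 89.3% identical to the chromosome 9 copy over the aligned bases, and their stop profiles over positions were the most like it of all copies, with Pearson correlations of 0.942 over 286 and 0.945 over 293 aligned positions measured in both. The next copy in likeness had 0.824. The copies share reads, so these correlations describe shared sequence as much as shared stops. Over all 98 copies, the median identity to the chromosome 9 copy was 76.6% and the lowest was 65.5%.

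The RNA-seq library drew a sharper line between copies than RT stops did. It had 8 copies of 7SK with 12299 to 370532 alignments, led by the chromosome 9 copy, and at most 23 alignments on any of the other 90, of which 61 had 0. ENSMUST00000122587 on chromosome 4, ENSMUST00000083409 on chromosome 6 and ENSMUST00000083711 on chromosome 12, ranked 7, 9 and 10 by RT stops, had 22, 23 and 8 alignments. Of the Y RNA copies, that of 112 bases had 1375 alignments, that of 102 bases 950, and ENSMUST00000083787, a copy on chromosome 6 between Gdf3 and Dppa3, had 442. The order of the leading Y RNA copies by RNA-seq was thus not that by RT stops, where the copy of 102 bases came first, and 8 of 15 Y RNA copies had no alignment. There is 1 RNA-seq library, so these values have no replicate check, and the library was not stranded. All alignments on a copy were counted, and those that similar copies could share were not set apart. The 8 leading copies of 7SK therefore need not be transcribed separately, and which of them are was not tested.

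Copies that share sequence share reads. Of the RT stops on 7SK copies, 47.3% were left when every stretch of 25 bases was counted once, and 87.2% of those on Y RNA copies. For the chromosome 9 copy of 7SK, only 11.7% of its stops fell at positions whose following 25 bases occur once in the genome, all of them in the 75 such positions near its 3′ end. For the chromosome 2 copy this share was 0.346%, and for the Y RNA copies of 102 and 112 bases it was 42.3% and 28.1%. In contrast, 50 of 98 copies of 7SK had over 90% of their stops at positions found once, among them copies that RNA-seq did not detect.

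The replicates of many copies were nearly equal. In 66 of 98 copies of 7SK, and in 11 of 15 of Y_RNA, the totals of replicates 1 and 2 differed in every treatment by at most 1% or 3 counts, against 1124 of 13105 other genes (8.58%). These 66 copies held 8.44% of the 7SK stops. ENSMUST00000122617 of chromosome 12, for example, had 19329 stops in both NT replicates, 7098 and 7094 in DMS, and 23306 and 23286 in CMCT. The libraries as a whole differed, since CMCT replicate 1 had 247369982 and CMCT replicate 2 had 140186204 stops. By position, of those with at least 50 stops over both replicates, 85.8% of 795 in NT, 75.5% of 844 in DMS and 88.5% of 922 in CMCT were equal to within 1 count on 7SK where the 25 bases occur once in the genome. Where the bases occur more than once, the shares were 23.1%, 20.2% and 26.3%. Other transcripts had 22.8% to 28.8% at positions found once and 19.3% to 21.5% at the rest. The cause of the equal counts was not tested, and a p-value of such a copy rests on replicates that do not vary independently.

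**Figure D2:**
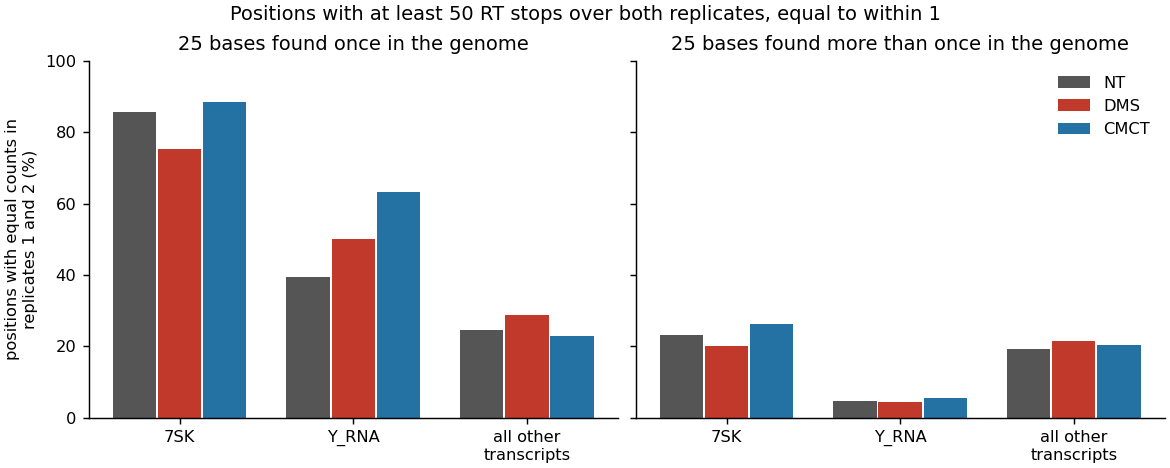
Percent of positions with equal counts in replicates 1 and 2, to within 1, among positions with at least 50 RT stops over both replicates, for 7SK copies, Y_RNA copies and all other transcripts (x axis) in NT, DMS and CMCT (bars). On the left are positions whose 25 bases occur once in the genome, where 7SK reaches 75.5% to 88.5%, and on the right those that occur more often, where it reaches 20.2% to 26.3%.

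Equal counts also appeared inside the leading copies. The 7SK copies of chromosomes 9 and 2 share 211 stretches of 25 bases, and at 179 of these their counts were identical in all 6 libraries. At most of the others the chromosome 9 copy had an excess. At U194 this excess was 12208 stops in both NT replicates, 1836 in both DMS replicates, and 15893 and 15894 in the CMCT replicates, while the chromosome 2 copy itself had 36399 and 20650, 20876 and 14106, and 78234 and 26827. Of 28 positions with an excess of at least 50 stops in NT, 12 had an excess equal to within 1 in the replicates, and the numbers were 7 of 25 in DMS and 9 of 22 in CMCT. The excess of the Y RNA of 112 bases over the copy near Dppa3 was likewise equal at 7 of 20 positions in NT, 8 of 24 in DMS and 8 of 13 in CMCT.

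Untreated 7SK already carried strong natural stops. In NT, the 5 strongest positions of the chromosome 9 copy took 33.8% of its stops. The strongest was U194 with 48607 and 32858 stops, followed by G191 with 23959 and 11437 and U200 with 27936 and 4154. At U200 the replicates thus differed by far more than the library totals did. In CMCT, U194 took 24.6% of the stops of the RNA (94127 and 42721), against 14.2% in NT and 6.22% in DMS. Bases 192 to 194 are unpaired in the predicted fold, and the stops at G191 to U194 were present in every library.

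**Figure D3:**
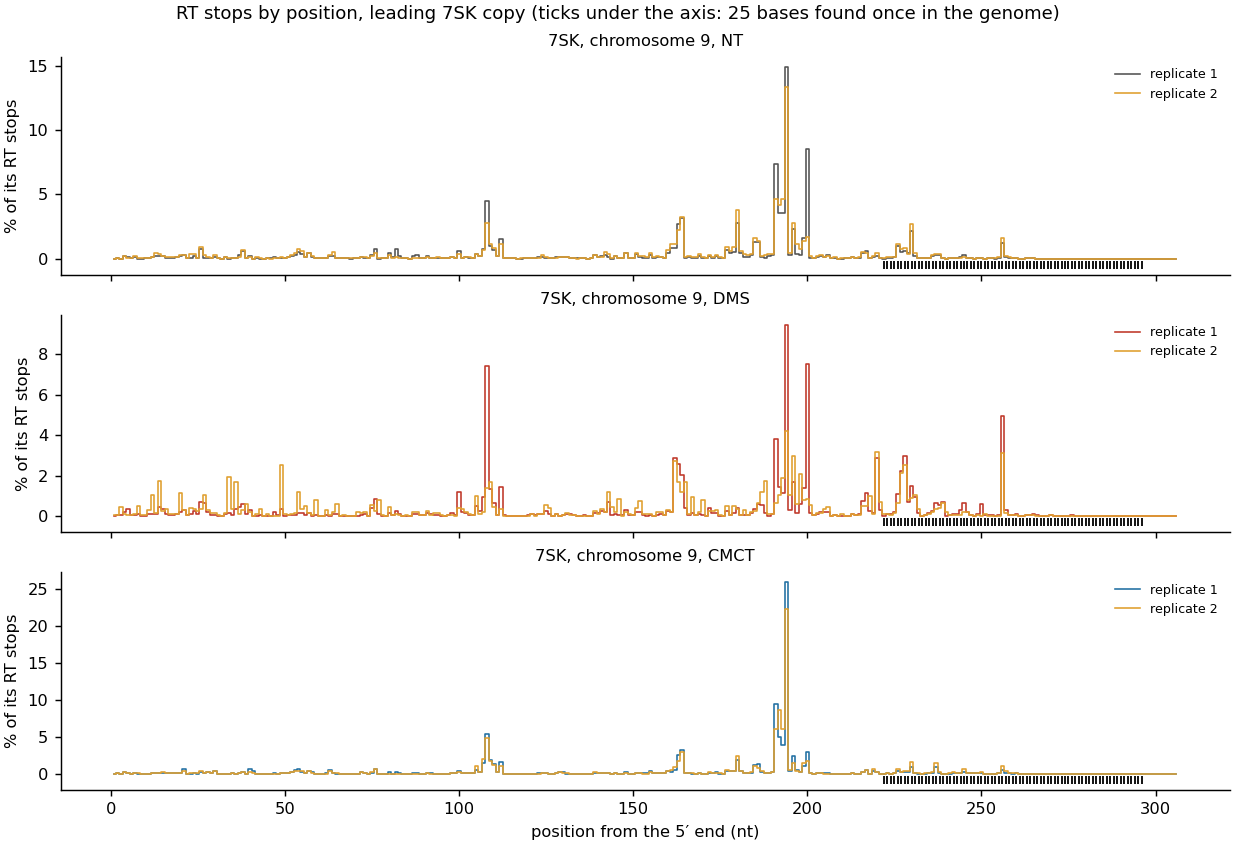
RT stops by position from the 5′ end of the 7SK copy of chromosome 9, as percent of the stops of the RNA in each library, for NT, DMS and CMCT (rows) and replicates 1 and 2 (lines). U194 is the highest position in each treatment, DMS adds stops at A220, A227, A228 and A256 and, in replicate 2, near the 5′ end, and ticks mark positions found once in the genome.

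DMS added stops mostly at A. Over the 306 measured positions, the mean log2 ratio of DMS over NT was 2.33 at A, 0.39 at C, -0.28 at G and -0.28 at U. The mean at A and C exceeded that at G and U by 1.45 (1.05 in replicate 1 and 1.52 in replicate 2). At A34, DMS had 433 and 7367 stops against 25 and 46 in NT, and at A49 887 and 9691 against 182 and 247. Both positions were far higher in DMS replicate 2 than in replicate 1, and the plot of stops by position shows more stops near the 5′ end in that library. At A256, which is found once in the genome, the values were 11851 and 11871 in DMS, 4038 and 4047 in NT, and 1973 and 1974 in CMCT. At A239 they were 1728 and 2477 in DMS, 136 and 157 in NT, and 74 and 57 in CMCT.

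Taken alone, CMCT gave 39 highly reactive positions of 7SK, and DMS 57. Reactivity is capped at a percentile of the same RNA, so part of each count is set by the scaling. These counts therefore do not measure how strongly a reagent acted. The mean log2 ratio of CMCT over NT was 0.07 at U, but -0.87 at G, -0.86 at C and -0.40 at A, so that G and U together exceeded A and C by 0.19 only (0.22 and 0.18 in the replicates). This small difference turned negative when stops were counted 1 base upstream. The clearest site was U41 with 1495 and 317 stops in CMCT against 14 and 17 in NT, beside U40 with 2342 and 464 against 723 and 351. U237 had 3123 and 2861 in CMCT against 968 and 812 in NT. At these 3 positions, the CMCT value exceeded both NT values at U237, at U41 and, in replicate 1 only, at U40.

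In total 88 of 306 positions of 7SK were highly reactive, of which 43 were A, 18 C, 8 G and 19 U. The minimum free energy fold of the RNA, predicted without the data, has -112 kcal/mol. Of the highly reactive positions 53.4% (47 of 88, 95% Wilson interval 43.1% to 63.5%) were unpaired in it, against 32.1% (70 of 218, 26.3% to 38.6%) of the others. With CMCT alone the shares were 48.7% (33.9% to 63.8%) and 36.7% (31.1% to 42.6%), and these intervals overlap. The intervals cover counting error only, and neighbouring positions are not independent. Among the bases A, 28 of 43 highly reactive ones were unpaired, and among G 1 of 8.

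The letters GAUC occur at bases 13 to 16, 42 to 45 and 64 to 67 of 7SK, on the RNA strand. At the A of these sites, DMS gave 1104 and 6567, 129 and 1346, and 322 and 2251 stops, against 644 and 835, 49 and 63, and 136 and 201 in NT. The DMS reactivities were 0.954, 1 and 1, and the U of the sites had a CMCT reactivity of 0. The fold without data pairs the A of the first 2 sites and leaves that at base 65 unpaired. Of the 98 copies, 28 (28.6%) hold GAUC at least 3 times and 87 hold it at least once. In the first 331 bases of the other transcripts the shares were 8.17% of 23682 for at least 3 and 62.3% for at least once. The letters CUUCGG at bases 179 to 184, a sequence known for very stable hairpin loops, had a reactivity of 0 at all 6 bases with either reagent. Its U180 was a natural stop instead, with 9142 and 9414 stops in NT, 925 and 1374 in DMS, and 6888 and 4621 in CMCT. CUUCGG is in 13 of 98 copies and in 8.19% of the same windows of other transcripts.

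Diverged copies had stops at the same aligned bases. The stretch around these natural stops is shown for 4 copies, with capitals at bases that differ from the chromosome 9 copy in a global alignment.
7SK of chromosome 9, chr9:78023222-78023265, minus strand: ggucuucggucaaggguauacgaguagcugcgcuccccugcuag
ENSMUST00000083320, chr7:110420238-110420281, plus strand: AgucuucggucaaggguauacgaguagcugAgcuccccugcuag
ENSMUST00000122617, chr12:92219840-92219883, plus strand: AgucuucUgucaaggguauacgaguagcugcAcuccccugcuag
ENSMUST00000122773, chr14:18717420-18717463, minus strand: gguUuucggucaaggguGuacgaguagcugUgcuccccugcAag
The base that aligns with U180 had 8488 stops in each NT replicate on ENSMUST00000122617, and 7606 and 7607 on ENSMUST00000122773. At both copies its 25 bases are found once in the genome by exact match, though the capitals show that they differ little from the chromosome 9 copy. In DMS the same base had 708 stops in each replicate on the first and 595 in each replicate on the second, and in CMCT it had 3770 and 3771, and 3336 and 3337. On ENSMUST00000083320 it had 8701 and 8700 stops in NT, and on the chromosome 9 copy 9142 and 9414. The base that aligns with U194 had 840 and 841 stops in NT on ENSMUST00000122617 and 5705 and 5696 in CMCT. On the chromosome 9 copy, the same base had 48607 and 32858 in NT. Thus the NT counts at U180 lay between 7606 and 9414 in all 4 copies, while those at U194 were far lower in the diverged copies, and the replicates of the diverged copies were equal or nearly so. ENSMUST00000122617 had 23 RNA-seq alignments and ENSMUST00000122773 had 0.

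The stops of 1 diverged copy rested on a single position. On ENSMUST00000157578 of chromosome 13 (343 bases, 77.2% identical), C193 alone took 97.0% of the stops in NT, 83.1% in DMS and 94.1% in CMCT, with 27424 and 3712 stops in the NT replicates. It had no RNA-seq alignment. Copies with few stops had them at few positions, such as ENSMUST00000158188 of chromosome 1 with stops at 5 of its 327 bases in NT, and ENSMUST00000122695, a Y RNA copy of 86 bases on chromosome 2, with stops at 4.

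The strongest natural stops of the leading Y RNA copies lay at bases 14 to 27, and G19 was among the 5 strongest of both. On the Y RNA of 102 bases, the 5 strongest stops in NT were at G20 with 63581 and 9815, C27 with 50962 and 7022, U25 with 26051 and 8481, U21 with 25038 and 4671, and G19 with 21719 and 6876, and these positions took 65.1% of its stops. On that of 112 bases they were at G14 with 9977 and 2438, G19 with 8056 and 2515, U15 with 7790 and 722, U18 with 6734 and 1100, and U23 with 4482 and 1560, and these took 51.2%. At all of these, NT replicate 1 was higher than replicate 2. The copies are 78.4% identical over the aligned bases, and the correlation of their profiles was 0.369 over 77 positions measured in both, as a description. The copy near Dppa3, 91.9% identical to that of 112 bases, had a profile correlation of 0.878 with it over 86 positions, and 2.10% of its stops were at positions found once.

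**Figure D4:**
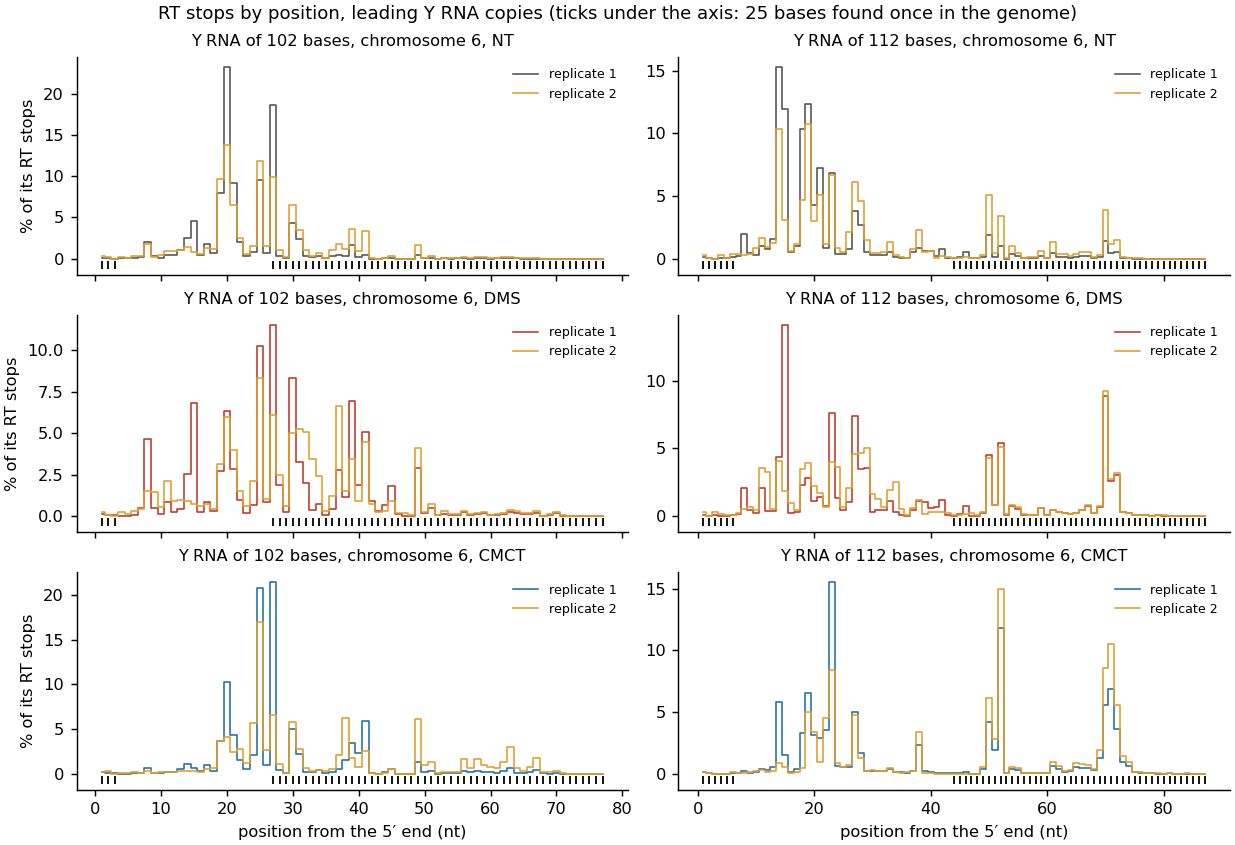
RT stops by position from the 5′ end of the Y RNA copies of 102 bases (left) and 112 bases (right), as percent of the stops of the RNA in each library, for NT, DMS and CMCT (rows) and replicates 1 and 2 (lines). Natural stops lie between bases 14 and 30, both reagents add stops at bases 52 and 70 to 72 of the copy of 112 bases, and ticks mark positions found once in the genome.

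On the Y RNA of 102 bases, the mean log2 ratio of DMS over NT was 2.20 at A, 1.82 at C, 1.50 at U and 0.41 at G. Each set is scaled to its own mean, and the 5 strongest positions took 65.1% of the stops in NT and 37.6% in DMS. A positive mean is therefore relative to the RNA and need not be a rise in stops. A and C exceeded G and U by 0.90 (1.19 and 0.66 in the replicates). With CMCT, the means were 1.62 at U and 1.48 at C, and the difference of G and U from A and C was 0.00 (-0.11 and 0.24). At A32, DMS gave 1569 and 2713 stops against 847 and 717 in NT, and at C45 it gave 1460 and 481 against 225 and 249. CMCT gave 294 stops in each replicate at U67, against 47 in each of NT, and 501 in each at U63 against 168 and 166. Both of these positions are found once in the genome, and their replicates differ by at most 2 counts.

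On the Y RNA of 112 bases, DMS stops at A and C exceeded those at G and U by 1.14 (0.96 and 1.13), while CMCT stops at G and U fell short of those at A and C by 0.35 (-0.31 and -0.36). C52 had 3229 and 2669 stops in CMCT, 1603 and 1440 in DMS, and 658 and 802 in NT. A71 had 1881 and 1880 in CMCT, 777 and 776 in DMS, and 281 in each of NT. The longest unbroken run of highly reactive bases was 68 to 82, of which 13 of 15 were unpaired in the predicted fold. The Y RNA of 102 bases had a pair of longest runs, with 3 of 8 unpaired at bases 40 to 47 and 7 of 8 at bases 66 to 73, and 7SK had 3 of 7 at bases 245 to 251. The NT stops at bases 68 to 82 ranged from 0 to 1816 over both replicates. Over both Y RNAs, 63.2% of the highly reactive positions were unpaired (36 of 57, Wilson interval 50.2% to 74.5%) against 25.2% (27 of 107, 18.0% to 34.2%) of the others. The folds have -27.1 kcal/mol for 102 bases and -34.3 kcal/mol for 112 bases.

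Between treatments, the total of stops per copy was compared with edgeR's quasi-likelihood test over all 13216 genes tested. The reagents were added to lysate, and the total counts all stops on a copy. More of the RNA in a library and more stops per molecule cannot be told apart in this total. In DMS against NT, 26.4% of all genes were called at an adjusted p under 0.05, 13.8% higher and 12.5% lower, and 51 of 113 members (45.1%) were called, 31 higher and 20 lower. In CMCT against NT, 29.0% of all genes were called, 15.0% higher and 13.9% lower, and 41 members (36.3%) were called, 34 higher and 7 lower. The median log2 fold change of the members was 0.16 for DMS and 0.33 for CMCT, against 0.01 and 0.11 over all genes. Both comparisons use the same NT libraries. A fit without 1 library leaves that treatment with 1 library, so a call lost in it is not by itself a change in the copy. Of the called members, 38 of 51 for DMS and 34 of 41 for CMCT had near-equal replicates, as did 77 of all 113 members. For DMS, 49.4% of the members with near-equal replicates and 36.1% of the others were called. For CMCT these shares were 44.2% and 19.4%. Among the 36 members without near-equal replicates, 2 were called higher and 11 lower for DMS, and 1 higher and 6 lower for CMCT. Some of these 36 missed the rule only narrowly. ENSMUST00000122800, called lower for DMS, had 4960 stops in each NT replicate, 3577 and 3653 in DMS, and 3943 and 3940 in CMCT. When all genes with near-equal replicates were left out of the fit, an alternative chosen after seeing the data, 9 of 36 members were called for DMS (25.0%, against 19.8% of all genes) and 6 for CMCT (16.7%, against 22.9%). With only positions found once in the genome, 23 of 110 members were called for DMS (20.9%, against 8.86% of all genes) and 5 for CMCT (4.55%, against 5.55%). Without NT replicate 1, the counts were 18 (15.9%, against 18.4%) and 6 (5.31%, against 18.9%). Without NT replicate 2 they were 21 (18.6%, against 13.0%) and 14 (12.4%, against 12.1%), and without DMS replicate 1 the count for DMS was 23 (20.4%, against 14.4%). The share of members called thus lay above that of all genes in both comparisons of the fit over all genes and positions, and below it in both without NT replicate 1. For CMCT it also lay below at positions found once and without genes of near-equal replicates.

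**Figure D5:**
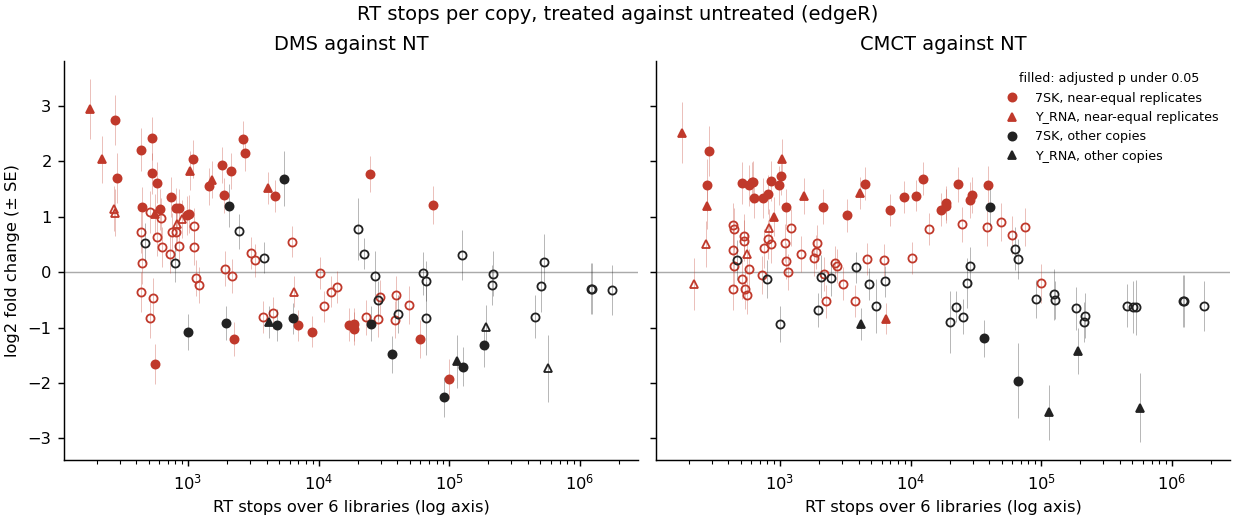
Log2 fold change of RT stops per copy with its SE (y axis) against the stops summed over 6 libraries (log x axis), for DMS against NT (left) and CMCT against NT (right). Circles are 7SK, triangles Y_RNA, filled marks have an adjusted p under 0.05 and red marks have near-equal replicates. Of the called copies, 38 of 51 for DMS and 34 of 41 for CMCT are red, as are 77 of all copies.

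The leading 7SK copies did not pass the test. For the chromosome 9 copy the log2 fold change was -0.33 (SE 0.45, adjusted p = 0.625) with DMS and -0.60 (SE 0.45, adjusted p = 0.352) with CMCT. The other 4 of the leading 5 had -0.30 to 0.18 with DMS and -0.64 to -0.51 with CMCT, with adjusted p of 0.354 or more. With positions found once only, the DMS change reversed on all of the leading 5 but ENSMUST00000082760, and that of CMCT on ENSMUST00000083977. The largest falls with DMS were on ENSMUST00000122773 (-2.25, SE 0.37, adjusted p = 0.00117), ENSMUST00000122617 (-1.92, SE 0.36, adjusted p = 0.0022) and ENSMUST00000083711 of chromosome 12 (-1.70, SE 0.36, adjusted p = 0.00382). Their stops had been 20043 and 20044, 19329 in each, and 29783 and 23770 in NT, and fell to 5787 and 5936, 7098 and 7094, and 9756 and 12725 in DMS. In NT 1 base of each copy, U189, U180 and U179 in this order, took 38.0%, 43.9% and 28.4% of its stops. Without DMS replicate 1, ENSMUST00000122617 (adjusted p = 0.0514) and ENSMUST00000083711 (0.0904) missed the threshold. The largest rises with DMS among 7SK copies were on ENSMUST00000158561 of chromosome 10 (2.74, SE 0.45, adjusted p = 0.00124), with 9 and 10 stops in NT and 89 and 88 in DMS, and ENSMUST00000158188 (2.42, SE 0.38, adjusted p = 0.00107), with 24 and 26 in NT and 186 and 185 in DMS. With CMCT, ENSMUST00000158828 of chromosome 7 had 2.19 (SE 0.44, adjusted p = 0.0033), with 12 stops in each NT replicate and 75 and 77 in CMCT. Without NT replicate 1 or NT replicate 2 the last call was lost (adjusted p = 0.0622 and 0.0503). These 3 copies have near-equal replicates and at most 3 RNA-seq alignments. The replicates of ENSMUST00000122617 are near-equal too.

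Relative to library size, the leading Y RNA copies had fewer stops in CMCT than in NT. The Y RNA of 102 bases had 273373 and 71215 stops in NT, 79179 and 53268 in DMS, and 78921 and 16986 in CMCT. NT replicate 1 stood apart, with 1508 stops per 1000000 of the library against 437 in NT replicate 2, 464 and 346 in DMS, and 319 and 121 in CMCT. On this scale both CMCT values lay below both NT values, while the raw counts overlapped. The log2 fold change was -2.44 (SE 0.62, adjusted p = 0.0114) for CMCT and -1.74 (SE 0.60, adjusted p = 0.0508) for DMS. Without NT replicate 1 these were -1.48 (adjusted p = 0.141) and -0.78 (adjusted p = 0.40), and with positions found once only they were -1.93 (adjusted p = 0.131) and -0.89 (adjusted p = 0.355). With DESeq2 the change with DMS passed the threshold (adjusted p = 0.0221). The Y RNA of 112 bases had 65216 and 23483 stops in NT, 29579 and 28218 in DMS, and 27323 and 17833 in CMCT. Its log2 fold change was -1.42 (SE 0.41, adjusted p = 0.0211) for CMCT and -0.995 (SE 0.40, adjusted p = 0.0842) for DMS, and -0.79 (adjusted p = 0.156) for CMCT without NT replicate 1. With DESeq2 the change with DMS passed (adjusted p = 0.0249). With positions found once only, the values were 0.34 (adjusted p = 0.53) for CMCT and 0.33 (adjusted p = 0.514) for DMS. The copy near Dppa3 had 54389 and 14366 stops in NT, 15159 and 13710 in DMS, and 12902 and 4355 in CMCT. Its log2 fold changes were -2.53 (SE 0.49, adjusted p = 0.00263) for CMCT, -1.59 (adjusted p = 0.0385) without NT replicate 1, and -1.61 (SE 0.48, adjusted p = 0.0258) for DMS, -0.66 (adjusted p = 0.265) without it. The DMS call was also lost without DMS replicate 1 (adjusted p = 0.176) and with RLE scaling (0.0633). With positions found once only, its fold changes were -0.39 (adjusted p = 0.545) and -0.30 (adjusted p = 0.627).

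The other Y RNA copies had few stops. Of those named here, all but ENSMUST00000083359 have near-equal replicates, which limits their p-values. ENSMUST00000082772 of chromosome 18 had 1131 stops in each NT replicate, 1231 and 1230 in DMS, and 878 in each CMCT replicate, with log2 fold changes of -0.35 (adjusted p = 0.377) and -0.84 (adjusted p = 0.0429). It missed the threshold for CMCT without either NT replicate (0.0663 and 0.314) and without CMCT replicate 1 (0.248), with RLE scaling (0.0504) and with positions found once only (0.137). ENSMUST00000083359 of chromosome 17 had 842 and 841 stops in NT, 632 and 619 in DMS, and 609 and 608 in CMCT, with log2 fold changes of -0.90 (adjusted p = 0.0342) and -0.94 (adjusted p = 0.0278). The DMS call was lost without any 1 of the NT and DMS libraries (adjusted p = 0.0612 to 0.262), with RLE scaling (0.0514) and without genes of near-equal replicates (0.0555). The CMCT call was lost without either NT replicate (0.0548 and 0.257) and without CMCT replicate 1 (0.154). With positions found once only, both changes turned, to 0.66 (adjusted p = 0.207) and 0.85 (adjusted p = 0.158). ENSMUST00000122695 rose most with both reagents, by 2.94 (SE 0.54, adjusted p = 0.00194) with DMS and 2.52 (SE 0.55, adjusted p = 0.00533) with CMCT, from 4 and 5 stops in NT to 48 and 49 in DMS and 36 and 37 in CMCT. Without NT replicate 1 both calls were lost (adjusted p = 0.0542 and 0.0823), and that of CMCT also without NT replicate 2 (0.0592). ENSMUST00000082831 of chromosome 3 rose by 1.84 (adjusted p = 0.00246) and 2.04 (adjusted p = 0.00165), from 44 and 45 stops to 221 and 220 and to 254 in each. Its DMS call was lost without NT replicate 1 (adjusted p = 0.0516).

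Genes of the 7SK complex and of Y RNA binding proteins were examined in the same fit. All 10 genes reported from the 7SK complex and P-TEFb list had RNA-seq alignments, from 120 on Hexim2 to 3980 on Hnrnpa2b1, which encodes an RNA-binding protein. Of the 8 with RT stops to test, 1 was higher and 1 lower with DMS, and 1 higher and 1 lower with CMCT, beside 26.4% and 29.0% of all genes called. Ccnt2, which encodes cyclin T2, had 14899 and 14370 stops in NT, 6013 and 5949 in DMS, and 7030 and 5700 in CMCT, with log2 fold changes of -1.76 (adjusted p = 0.00193) and -1.71 (adjusted p = 0.00225). Hexim2, a paralog of HEXIM1, rose by 1.70 with DMS (adjusted p = 0.0019). It had 1413 and 1383 stops in NT, 6315 and 6275 in DMS, and 3544 and 3511 in CMCT. Its replicates were thus close although the library totals differed, which limits this p-value. Hnrnpr rose by 0.81 with CMCT (adjusted p = 0.0276). The median log2 fold changes of the 8 tested genes were 0.32 and 0.73. All 11 genes of the Y RNA binding protein list were also detected, from 207 alignments on Dis3l to 9680 on Igf2bp1. Of the 9 tested, 0 were higher and 1 lower with DMS, and 3 higher and 1 lower with CMCT, beside the same shares of all genes. Ssb, which encodes La, had 1296 and 862 stops in NT and 3354 and 1963 in CMCT (log2 fold change 0.78, adjusted p = 0.028), Ncl (nucleolin) had 1.20 (adjusted p = 0.0137) and Matr3 (matrin 3) 0.90 (adjusted p = 0.0171). Igf2bp1, an mRNA-binding protein, fell with both reagents, by 1.49 (adjusted p = 0.00583) and 1.03 (adjusted p = 0.0353) on the log2 scale. The median log2 fold changes of this list were -0.05 and 0.20.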

How the data were processed

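CIRS-seq was measured in NT, DMS and CMCT libraries (2 replicates each), and RNA-seq in 1 library. The authors deposited, for each CIRS-seq library, the raw count of RT stops at every position of every transcript, without normalization, and files that combine the replicates, which were not used. The deposited RNA-seq file lists alignments with a score per alignment. The score was not used, and alignments were counted. The submitters' processing notes name Bowtie 1.0.0, TopHat2 2.0.6, bedtools 2.17.0, FastQC 0.10.1 and the mm9 build. How reads with several places in the genome were treated is not given in the sources used here, and this bears on the values of copies that share sequence.

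GENCODE vM1, on mm9, gave the place of each transcript. A position was called found once when the 25 bases after it occur once in mm9 on either strand. The match was exact, so such a position can still share reads with a similar copy where reads were placed with mismatches, which was not tested. A position found more than once can in turn have counts that differ between copies. Copies were aligned globally with Biopython 1.88 and folded with ViennaRNA 2.7.2. A pseudocount of 1 was used for log2 ratios, and reactivities were capped at the 90th percentile of each RNA. A genomic position shared by isoforms was counted once. The test was that of edgeR 4.0.16, run in R 4.3.3 (TMM, filterByExpr, quasi-likelihood test, 1 fit over 6 libraries, Benjamini-Hochberg adjustment over all genes, threshold 0.05), with DESeq2 1.42.0 as an alternative. The SE printed for a log2 fold change is its absolute value divided by the square root of the F statistic of the edgeR test. The study calls the replicates biological, and the labels do not say that they came from separate cultures, so p-values measure only the spread between these libraries.

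Python 3.11.15 with pandas 2.3.3, numpy 2.4.6 and numba 0.67.0 read the files, and matplotlib 3.10.9 drew the figures. Copies named were the 5 with the most stops of each symbol and up to 3 with the largest rise and fall in each comparison, among called copies whose replicates moved in the same direction. ENSMUST00000122587, ENSMUST00000083409, ENSMUST00000083320 and the single positions named beyond the 5 strongest of a treatment were chosen after their values were seen. Members and gene lists were chosen with earlier results of these data known, and 1 gene of the 7SK complex and P-TEFb list is not reported here and is left out of its counts. Coordinates are those of mm9. RefSeq names (GRCm38) were used for neighbours only.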

Additional observations from a re-analysis of the deposited data

How the results depend on the processing

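The number of members called moved by over 1.5 times under several alternatives. For DMS it was 51, and ranged from 18 to 37 when 1 library was left out, with 23 at positions found once and 9 without genes of near-equal replicates, which leaves 36 members. For CMCT it was 41, and ranged from 6 to 50 when 1 library was left out, with 5 at positions found once and 6 without genes of near-equal replicates. With RLE scaling the counts were 38 and 32 (33.6% and 28.3% of members, against 24.7% and 20.4% of all genes). Without the filter on low counts they were 51 and 41 (45.1% and 36.3%, against 26.3% and 28.9%). With DESeq2 they were 64 and 47 (56.6% and 41.6% of members, against 42.3% and 37.3% of all genes). RLE scaling moved the median of all genes for CMCT from 0.11 to 0.01. With the replicate number as a block, 68 members were called for DMS (60.2%, against 42.5% of all genes) and 53 for CMCT (46.9%, against 38.1%), and the DMS changes of ENSMUST00000083011 and ENSMUST00000083767 passed the threshold (adjusted p = 0.00724 and 0.0358). Over 12601 genes, the replicate difference in NT correlated with that in DMS at 0.58 and with that in CMCT at 0.0049, while the DMS and CMCT differences correlated at -0.10, so the numbers deviated together in NT and DMS but not in the other pairs, the labels give no shared source, and the block was not used elsewhere.

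When each stop was counted 1 base upstream, the DMS base preference of 7SK turned from 1.45 to -0.18 and that of CMCT from 0.19 to -0.062. Counted 1 base downstream they were -0.16 and 0.15. For the Y RNAs, DMS gave 0.66 upstream and 0.53 downstream. A pseudocount of 5 gave 0.23 for CMCT on 7SK. Single replicates ranged from 1.05 to 1.52 and from 0.18 to 0.22 on 7SK, and for CMCT on the Y RNAs from -0.21 to -0.060. The share of the leading copy at positions found once was 11.5% for 7SK, where ENSMUST00000122587 held more such stops than the chromosome 9 copy (206538 against 204589), and 76.5% for Y_RNA. Over all positions, single replicates gave 55.8% to 66.8% for the leading copy of Y_RNA.

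At positions found once, the DMS log2 fold change reversed to 0.55 on ENSMUST00000083103, 2.38 on ENSMUST00000083890, 0.47 on ENSMUST00000083977, -0.84 on ENSMUST00000083065, 0.33 on ENSMUST00000083767 and 0.66 on ENSMUST00000083359. That of CMCT reversed to 0.023 on ENSMUST00000083977, 0.34 on ENSMUST00000083767 and 0.85 on ENSMUST00000083359. When 1 library was left out, DMS ranged from -0.999 to 0.10 on ENSMUST00000083890, -1.01 to 0.11 on ENSMUST00000083977, -0.92 to 0.75 on ENSMUST00000083065, -1.20 to 0.26 on ENSMUST00000082760 and -1.74 to 0.71 on ENSMUST00000157578, and CMCT from -0.61 to 0.12 on ENSMUST00000122617. Of 189 alternatives of the 20 called changes of named copies, 143 kept direction and call, 43 lost the call and 3 reversed. Fits without 1 library, which leave 1 library in a treatment, are among these alternatives. The causes were not tested.

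Shared reads limit the values of copies with stops at positions found more than once, and near-equal replicates limit the p-values of 66 copies of 7SK and 11 of Y_RNA. With 2 libraries per treatment, the leading 7SK copies had an SE of 0.45 to 0.50 on the log2 scale.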

Other observations

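Near-equal replicates were also common among other small RNA families with many copies. By the same rule, the totals of both replicates agreed within 1% or 3 counts in every treatment in 361 of 664 genes named U6, 86 of 133 named U1, 19 of 42 named U2, 30 of 40 named U4 and 18 of 19 named 5S_rRNA. Of genes with at least 600 stops in each treatment, the numbers were 25 of 51 for 7SK, 1 of 5 for Y_RNA and 174 of 468 for U6. For all genes other than 7SK and Y_RNA, a set that still holds U6 and the other families named here, it was 469 of 10557.

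The bases at which stops fell were also counted at positions found once in the genome on copies other than the leading ones. On the 97 copies of 7SK other than that of chromosome 9, of which ENSMUST00000122587 held the most such stops (206538), A took 12.8% and 13.2% of the stops in NT, 29.4% and 36.0% in DMS, and 16.7% and 16.3% in CMCT, and U took 45.0% and 50.8%, 26.7% and 22.6%, and 54.4% and 56.7%. On the Y RNA copies other than the leading 3, A took 22.5% and 22.6% in NT and 35.4% in each DMS replicate, and U took 20.1% and 20.4% in NT and 48.0% and 47.9% in CMCT. Of these copies ENSMUST00000082772 held the most such stops (6298), and its G14 alone had 543 and 542 in NT. The shares pool copies, so they also depend on which copies had stops in each treatment.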
